A study of Mus musculus with 6 samples.

Results

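The transcriptional effect of angiotensin II (Ang-II) common to transgenic and wild-type mouse aortas was measured by setting all 4 Ang-II arrays against both saline arrays. The effect of a gene is the mean of its TG and WT differences (Ang-II minus saline) on the log2 scale. Genes were counted as members where every Ang-II array lay above, or below, both saline arrays. Of 9837 genes kept, 1517 had every Ang-II array above both saline arrays and 2018 had every Ang-II array below them, 3535 in all. The groups were Ang-II-infused TG mice (2 arrays), Ang-II-infused WT mice (2 arrays), saline-infused TG mice (1 array) and saline-infused WT mice (1 array). TG is the SM-CaMKIIN line, which carries a peptide inhibitor of the kinase CaMKII in smooth muscle only, and WT mice were littermates of the same C57 Bl/6 background. Pumps were implanted at 12 weeks of age and delivered Ang-II at 1.25 ug/kg/min, in 0.9% saline, or 0.9% saline alone, for 14 days, and the thoracic aorta was taken. Each group held 5 mice whose RNA was pooled, although the sample titles name the 2 Ang-II arrays of a genotype as biological replicates. The labels leave unsaid which animals each array holds. The p-values thus reflect the spread between the 2 Ang-II arrays of a genotype, which may be technical, and neither saline group has a spread of its own.

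Ang-II is the effector peptide of the renin-angiotensin system. It acts on smooth muscle, endothelial cells and fibroblasts of the vessel wall mainly through the AT1 receptor, raises blood pressure, and is widely infused in mice to model hypertensive remodelling of the aorta. Such remodelling is known for deposition of collagen and other matrix, entry of macrophages into the adventitia, and lower expression of contractile genes by smooth muscle cells. CaMKII is a calcium/calmodulin-dependent kinase that lies downstream of calcium release in these cells. The question here is which transcripts moved with Ang-II whether or not smooth muscle carried the inhibitor.

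Each array measured 45281 probes, of which 15393 to 16075 had a detection p under 0.01, and 16749 probes with such a p on at least 2 arrays were kept. Values are the deposited normalized log2 signals, which can be compared for 1 probe across arrays and not between genes. The labelled tissue was borne out by the markers of its muscle layer: the smooth muscle genes Acta2, Myh11 and Tagln had log2 values between 11.79 and 15.19 on the 6 arrays. Camk2n1, a natural CaMKII inhibitor gene, had 11.53 and 11.60 (TG Ang-II) and 11.47 and 11.66 (WT Ang-II), against 11.51 (TG saline) and 11.70 (WT saline), and the sources used here do not say whether its probe reads the transgene. Markers of fat and red cells were high in every Ang-II array relative to the saline array of WT mice, and heart muscle genes stood high on the TG Ang-II arrays alone. Their values are given below beside the results they move with.

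In the fit across all probes (limma), 1027 of 9837 genes rose and 690 fell with the averaged effect at a Benjamini-Hochberg adjusted p under 0.05, that is 10.4% and 7.01% of the genes tested. Non-overlap of the arrays was met by 15.4% of genes above and 20.5% below. Both criteria together left 854 rises and 583 falls, while 663 genes above and 1435 below did not pass the test, and 173 rises and 107 falls passed it with overlapping arrays. The rises were larger: their median averaged effect was 0.86, against -0.62 for the falls, with a median SE of 0.12 over all genes, and 296 rises against 56 falls reached a 2-fold difference. The clear space between the lowest Ang-II array and the higher saline array had a median of 0.21 log2 units over all genes above, and the corresponding space below had a median of 0.13. This space was at least 0.5 for 327 genes above and 75 below, and at least 1 for 56 above and 5 below. Of the rises, 129 had a probe not well above background on both saline arrays, and of the falls 33 had one on every Ang-II array. The sizes of these effects are not measured, so the larger rises rest in part on values near background. With detection required on all 6 arrays, 53.1% of the probes called rose, against 60.6% as reported.

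These counts lean on the arrays that have no partner. Over probes, 3209 passed with the averaged effect and 60.6% of them rose. Without the WT saline array the effect is the TG response alone and 1268 probes passed, and without the TG saline array it is the WT response alone and 1518 passed. With WT Ang-II replicate 1 or 2 left out, 1785 and 1641 passed, whereas leaving out TG Ang-II replicate 1 or 2 left 2821 and 2891. Genes with every Ang-II array above the saline arrays numbered 2302 without the WT saline array and 2648 without the TG saline array, and genes below numbered 3301 and 3214, since 1 array fewer has to be cleared. Another scaling shifts the whole balance: with each array centred on its median and no quantile normalization, the median of all probes moved to -0.31, against -0.06 as reported, and 20.4% of the 8361 probes called rose. Directions below are therefore relative to the bulk of genes.

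The TG and the WT response, which share no array, can be set side by side. Taken alone, the TG response called 514 rises (5.23% of genes) and 153 falls (1.56%), and the WT response called 599 rises (6.09%) and 259 falls (2.63%). Both responses passed for 272 genes, in the same direction for 247 and in opposite directions for 25. Of the 1717 genes called with the averaged effect, 260 also passed in both genotypes, 334 in TG alone, 504 in WT alone and 619 in neither. Across the 9837 genes the responses had a Pearson r of 0.42 and a Spearman rho of 0.47, as a description over genes, which are not independent replicates. The WT response was the larger for 814 of the 1437 members called (56.6%), against 53.7% of all genes. The median of TG minus WT was -0.09 for the rises, 0.07 for the falls and -0.01 for all genes. The difference between the responses passed its own test for 124 genes (1.26%), 29 of them among the 1437 members called and 71 among the 280 genes called with overlapping arrays. The rule gives members responses of the same sign, so the contrast between these counts follows in part from the selection.

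**Figure D1:**
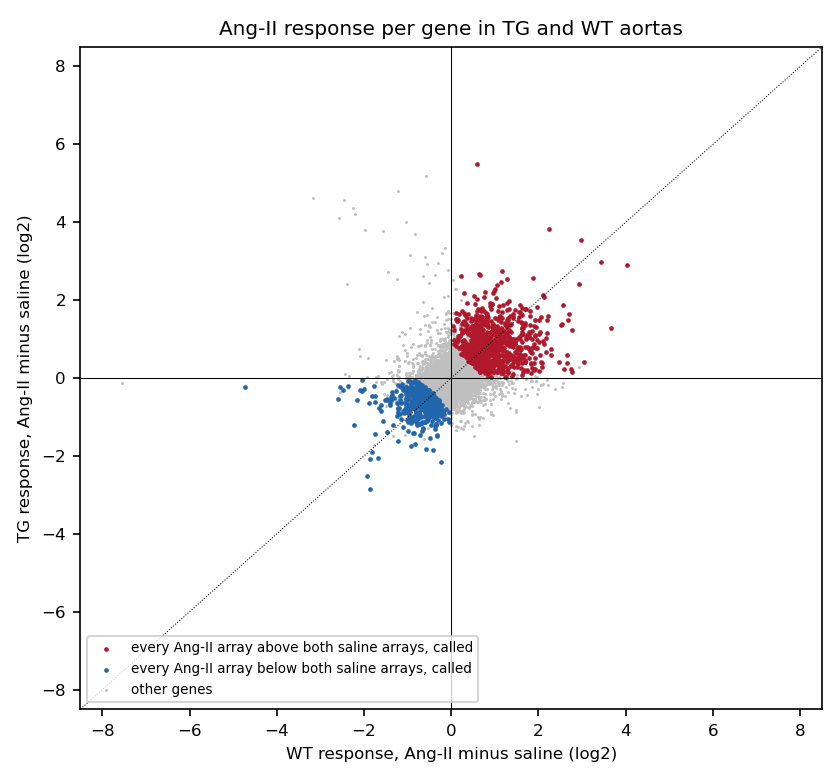
Each point is 1 of 9837 genes. The horizontal axis is the WT response and the vertical axis the TG response (Ang-II minus saline, log2), red marks the 854 genes that rose and blue the 583 that fell with non-overlapping arrays, grey marks all others, and the dotted line is equality. The rule of non-overlap places the coloured genes in the quadrants in which both responses have the same sign, so their position there is no result. The scattered grey points at upper left rose in TG and fell in WT.

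Effects are given in log2 units ± SE. The largest shared rise was that of Cthrc1, a secreted glycoprotein of injured and remodelling arteries. Its log2 values were 8.16 and 8.17 (TG Ang-II) and 8.72 and 8.74 (WT Ang-II), against 5.26 (TG saline) and 4.71 (WT saline). The groups were far apart, and both saline arrays lay at background, so the fold is a bound: the level was at least 6.96-fold higher with Ang-II (effect 3.46 ± 0.11, adjusted p = 0.000478). C1qtnf3 encodes a protein secreted by fat and connective tissue cells. It had 9.67 and 9.51 (TG Ang-II) and 9.79 and 9.62 (WT Ang-II), against 6.61 (TG saline) and 6.28 (WT saline). Its effect was 3.20 ± 0.12 (adjusted p = 0.000639), and its other probes rose by 2.72 and 2.74. Rbm47, an RNA-binding protein, had 8.18 and 8.12 (TG Ang-II) and 8.66 and 8.56 (WT Ang-II), against 4.61 (TG saline) and 5.64 (WT saline). It rose by 3.25 ± 0.11 (adjusted p = 0.000508), but only the WT saline array of the saline group measured it above background, by a narrow margin. Including Rbm47, 20 of the genes named below had at least 1 array not well above background and no bound, since another array of the same treatment measured them. With such arrays raised to the lowest detected value of the array, a description added after the values were seen, effects moved by over 0.2 for 11 of them: Rbm47 (2.73), Aplnr (1.68), Me1 (-1.99), Mup3 (-1.22), Trbv13-2 (-1.16), Lypd6 (-1.07), Klhl12 (-1.0), Lamb1 (0.61), Cacnb2 (0.81), Nr4a2 (0.65) and Sspn (-3.27). Ddah1 encodes the enzyme that degrades asymmetric dimethylarginine, an inhibitor of nitric oxide synthases. It had 9.46 and 9.46 (TG Ang-II) and 9.57 and 9.69 (WT Ang-II), against 7.06 (TG saline) and 6.71 (WT saline), a 6.34-fold difference (effect 2.67 ± 0.11, adjusted p = 0.000819), and no array of 1 group came near the other group.

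Among the other large rises, Aplnr, the apelin receptor, rose by 2.01 ± 0.18 (adjusted p = 0.00336), Acvr1c, the type I activin receptor ALK7, by 1.97 ± 0.12 (adjusted p = 0.00226), and Adamts12, a secreted metalloprotease, by 2.09 ± 0.12 (adjusted p = 0.00222). Ccl8, a chemokine that draws monocytes, had 7.56 and 8.0 (TG Ang-II) and 9.01 and 8.88 (WT Ang-II), against 6.14 (TG saline) and 6.26 (WT saline), and rose by 2.16 ± 0.16 (adjusted p = 0.00309). Angptl1, a secreted angiopoietin-like protein, and Depp1, a regulator of autophagy, rose by 2.22 ± 0.11 (adjusted p = 0.00158) and 2.12 ± 0.11 (adjusted p = 0.00136). Adam23, an ADAM protein without protease activity, rose by 2.11 ± 0.13 (adjusted p = 0.00228), Rc3h2, a protein that promotes mRNA decay, by 2.22 ± 0.25 (adjusted p = 0.00507) and at least 2.84-fold, its saline arrays being at background, and Prrc2c by 1.96 ± 0.17 (adjusted p = 0.0032). Responses of Depp1 were near equal, 2.13 in TG and 2.11 in WT, as were those of Adam23, 2.08 and 2.13. Cemip, which takes part in hyaluronan breakdown, rose in both genotypes but by unequal amounts: it had 5.82 and 5.84 (TG Ang-II) and 8.26 and 8.25 (WT Ang-II), against 4.53 (TG saline) and 4.58 (WT saline), at least 2.62-fold higher with Ang-II, and TG minus WT was -2.38 ± 0.21 (adjusted p = 0.014). For Hnrnpl, a splicing regulator, the average comes from a single array: it had 11.76 and 11.71 (TG Ang-II) and 11.96 and 11.85 (WT Ang-II), against 6.23 (TG saline) and 11.33 (WT saline), so that every array was high but that of TG saline, and without that array the effect was 0.58 and did not pass.

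Among the 15 largest falls, Scgb1a1, the secretoglobin of airway club cells, had 5.54 and 5.99 (TG Ang-II) and 5.27 and 5.31 (WT Ang-II), against 8.28 (TG saline) and 7.21 (WT saline). Its effect was -2.22 ± 0.16 (adjusted p = 0.00308). Serpina1d and Serpina1e, alpha-1-antitrypsin genes of mouse liver, had averaged effects of -1.86 ± 0.11 (adjusted p = 0.00222) and -1.88 ± 0.17 (adjusted p = 0.00364). Serpina1e was not well above background on any Ang-II array and was at least 2.25-fold lower there. These paralogs are nearly identical in sequence, so a probe may read more than 1 of them. Klk10, a secreted kallikrein-related protease of epithelia, had 6.5 and 6.48 (TG Ang-II) and 5.51 and 5.35 (WT Ang-II), against 8.56 (TG saline) and 7.28 (WT saline) (effect -1.96 ± 0.11, adjusted p = 0.00222), and Mup3, a major urinary protein made in liver, had an effect of -1.71 ± 0.14 (adjusted p = 0.00319). All Ang-II arrays lay below both saline arrays for each of these genes, although the saline arrays themselves differed by over 1 log2 unit for Scgb1a1, Klk10, Serpina1d and Mup3.

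Also among these falls, Rnd2, a small GTP-binding protein, had 5.41 and 5.97 (TG Ang-II) and 5.55 and 5.35 (WT Ang-II), against 7.14 (TG saline) and 7.20 (WT saline). Its effect was -1.60 ± 0.18 (adjusted p = 0.00536). The G-protein-coupled receptor gene Gpr21 and the ubiquitin ligase adaptor gene Klhl12 fell with effects of -1.41 ± 0.15 (adjusted p = 0.00421) and -1.34 ± 0.17 (adjusted p = 0.00641). Atg7, the E1-like enzyme of autophagy, had 5.53 and 6.36 (TG Ang-II) and 5.40 and 5.58 (WT Ang-II), against 7.32 (TG saline) and 6.96 (WT saline), with an effect of -1.42 ± 0.24 (adjusted p = 0.0156). Pcnp had -2.35 ± 0.22 (adjusted p = 0.00368), but its other probes gave values between -0.57 and 0.68 and so disagree on its direction. Me1, the cytosolic malic enzyme that supplies NADPH, Wdr82, Trbv13-2 (a T-cell receptor segment), Cops8 (a COP9 signalosome subunit) and Lypd6 had their larger falls in WT. Me1 had 8.78 and 8.95 (TG Ang-II) and 4.57 and 4.60 (WT Ang-II), against 9.09 (TG saline) and 9.31 (WT saline), so that only the WT Ang-II arrays were low, where its probe was not well above background. Without the WT saline array the calls of Me1 (-0.23), Wdr82 (-0.55), Trbv13-2 (-0.31), Cops8 (-0.23), Lypd6 (-0.58) and Atg7 (-1.38) ended, the numbers being the TG responses, and without the TG saline array those of Klhl12 (-0.93) and Atg7 (-1.47) did. Atg7 also lost its call without WT Ang-II replicate 1 (adjusted p = 0.0539).

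**Figure D2:**
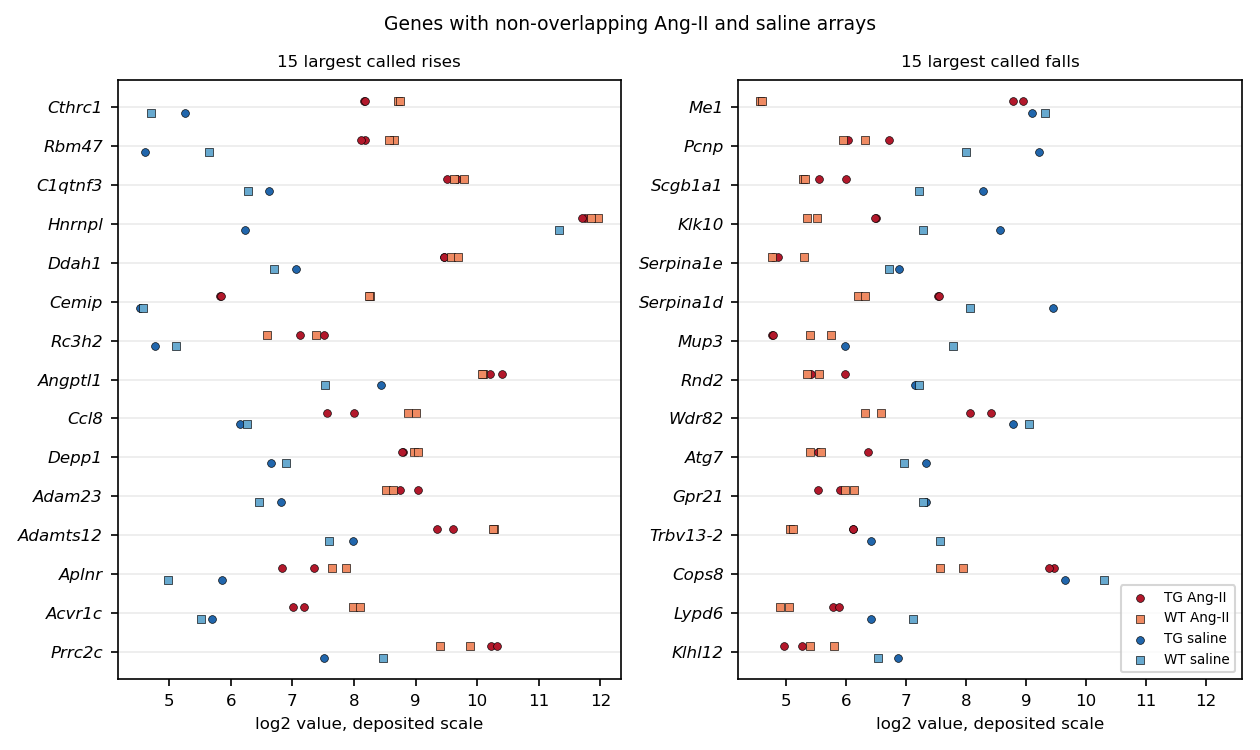
Log2 values (horizontal axis, deposited scale) of the 15 largest rises and the 15 largest falls among members that passed the test, 1 gene per row, with the Ang-II arrays drawn just above the saline arrays of the same gene and no error bar, since each point is 1 array. Cthrc1 and C1qtnf3 show the widest space between the groups, while Hnrnpl and Me1 show a single deviating group.

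The lists of genes described next were each taken whole, and a list is read against 10.4% of all genes rising and 7.01% falling and against the median effect of all genes, -0.06. Counts of genes without overlap are read against 15.4% of all genes above and 20.5% below. Under median centring, 679 of all genes lay above without overlap and 4664 below. Medians are given for the averaged effect, then for the TG and the WT response.

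**Figure D3:**
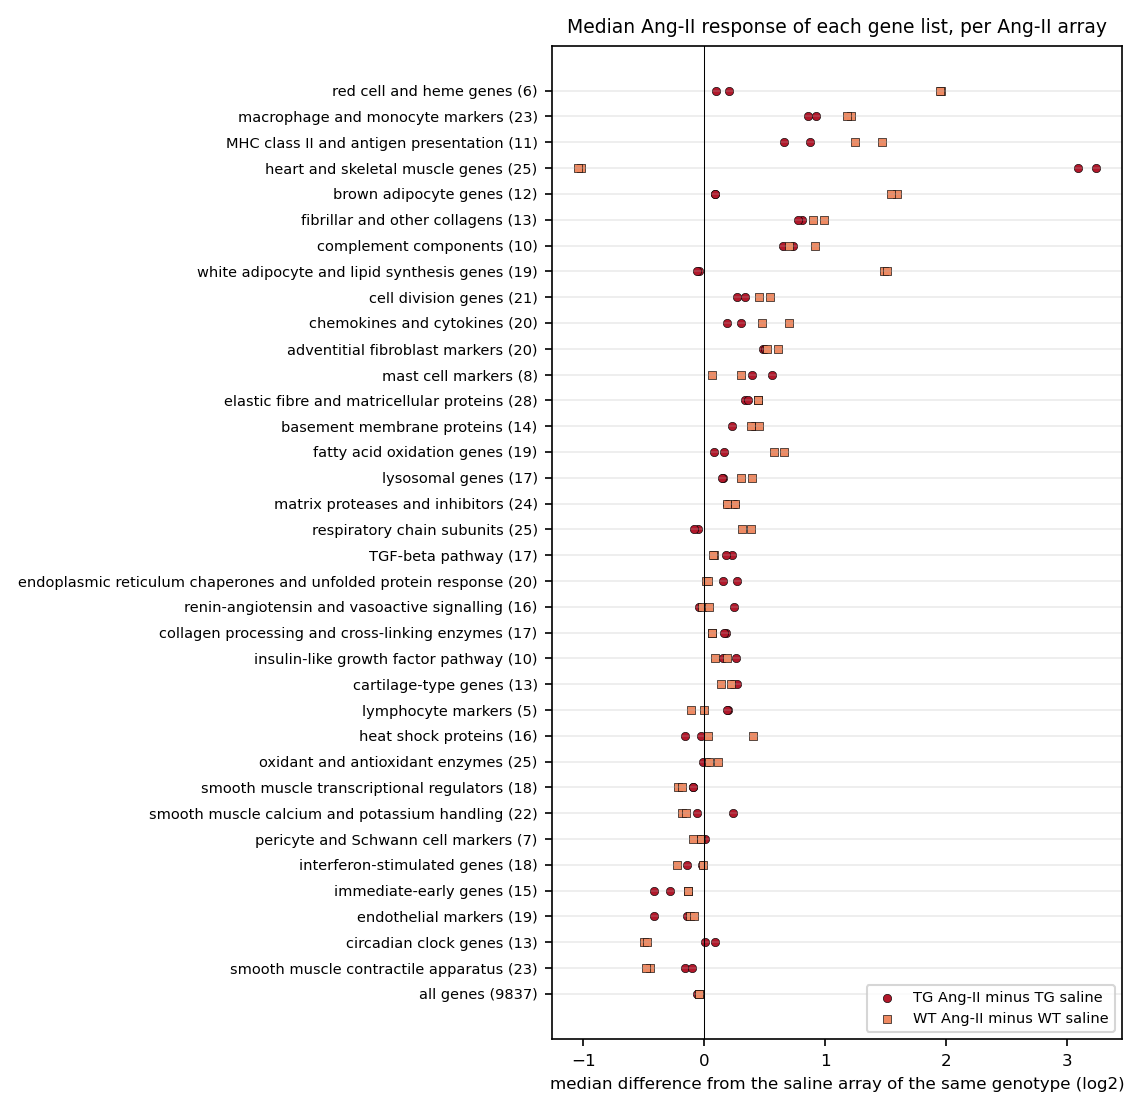
For each gene list (rows, with the number of genes measured), the median log2 difference of each Ang-II array from the saline array of its own genotype, TG in dark red circles and WT in orange squares. The 2 arrays of a genotype share 1 saline array, so their agreement includes it. Collagen, macrophage, MHC class II and complement genes lie to the right on all 4 arrays, as do other lists, brown adipocyte and red cell genes among them. Contractile genes lie to the left on all 4, as do endothelial, immediate-early, interferon-stimulated and smooth muscle regulator genes and the median of all genes. Heart genes lie far right in TG and left in WT.

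Collagen genes moved together. Of 13 measured, all 13 had every Ang-II array above both saline arrays, 10 rose and none fell, and their median effect was 0.85 (TG 0.80, WT 0.96). Alone, the TG response called 6 and the WT response 8 of them, and 8 to 10 rose with any 1 Ang-II array left out. Under median centring, 9 of the 13 had every Ang-II array above both saline arrays, 8 rose and none fell. Col1a1, a chain of type I collagen, the main fibre of the adventitia, had 13.86 and 13.74 (TG Ang-II) and 14.32 and 14.24 (WT Ang-II), against 12.20 (TG saline) and 12.46 (WT saline), a 3.27-fold difference (effect 1.71 ± 0.11, adjusted p = 0.0026). Col3a1, the chain of type III collagen that gives arteries their tensile strength, had 13.48 and 13.46 (TG Ang-II) and 13.44 and 13.70 (WT Ang-II), against 12.67 (TG saline) and 12.54 (WT saline). Its effect was 0.91 ± 0.12 (adjusted p = 0.00824). Type VIII collagen, a short-chain network collagen made by smooth muscle after injury, rose through both its genes: Col8a1 by 1.55 ± 0.11 (adjusted p = 0.00308) and Col8a2 by 1.48 ± 0.11 (adjusted p = 0.0031). Col5a2, a chain of the type V collagen that nucleates fibrils, rose by 1.38 ± 0.11 (adjusted p = 0.0032). The lowest effect of the list was 0.10. The call of Col3a1 rested on the WT saline array, without which its effect was 0.80.

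The matrix around these fibres changed in part. Among 28 elastic fibre and matricellular genes, 12 rose and 1 fell, with a median of 0.37 (TG 0.41, WT 0.48). Mfap2, a microfibril protein of elastic fibres, had 10.94 and 11.06 (TG Ang-II) and 11.04 and 11.15 (WT Ang-II), against 9.84 (TG saline) and 9.28 (WT saline). Its effect was 1.49 ± 0.11 (adjusted p = 0.00317). Eln, elastin itself, had 14.65 and 14.72 (TG Ang-II) and 14.88 and 15.04 (WT Ang-II), against 14.10 (TG saline) and 14.04 (WT saline). Its effect was 0.76 ± 0.11 (adjusted p = 0.0112). Thbs1, thrombospondin 1, an activator of latent TGF-beta, was not well above background on either saline array and was at least 2.26-fold higher with Ang-II (effect 1.36 ± 0.15, adjusted p = 0.00478), and Fmod, a proteoglycan that organises collagen fibrils, rose by 1.21 ± 0.11 (adjusted p = 0.00323). Fn1, fibronectin, did not pass (effect 0.40 ± 0.11, adjusted p = 0.0514): it had 11.97 and 11.89 (TG Ang-II) and 12.78 and 12.76 (WT Ang-II), against 11.74 (TG saline) and 12.15 (WT saline), so that the WT Ang-II arrays were high and the TG Ang-II arrays overlapped the saline arrays. Fn1 did pass in 4 alternative runs: without background correction, with an offset of 50, with detection on all 6 arrays and with a trended robust prior. Postn, periostin, did not pass either (effect -0.24 ± 0.11, adjusted p = 0.179), and its other probes gave 0.50 and 0.54, the opposite direction. Ccn2, a secreted matricellular growth factor known as a TGF-beta target, lay near the top of the scale on all arrays, 15.27 to 15.36 with Ang-II against 15.21 and 15.24 with saline, and did not pass (effect 0.12 ± 0.11, adjusted p = 0.467).

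Of 14 basement membrane genes, 4 rose, none fell, and the median was 0.37. Nid1 and Nid2, which link laminin to type IV collagen, rose by 1.19 ± 0.13 (adjusted p = 0.00491) and 0.76 ± 0.11 (adjusted p = 0.00941), and the laminin chains Lamb1 and Lamc1 by 0.83 ± 0.11 (adjusted p = 0.00822) and 0.50 ± 0.12 (adjusted p = 0.039). Of 17 enzymes that process and cross-link collagen, 4 rose and none fell. Lox, the lysyl oxidase that cross-links collagen and elastin, had 13.43 and 13.44 (TG Ang-II) and 13.86 and 13.71 (WT Ang-II), against 12.39 (TG saline) and 12.47 (WT saline). Its effect was 1.18 ± 0.11 (adjusted p = 0.00368). Bmp1, the procollagen C-proteinase, and Loxl4, a lysyl oxidase-like enzyme, rose by 0.57 ± 0.11 (adjusted p = 0.0234) and 0.46 ± 0.12 (adjusted p = 0.0459). The list's median, 0.13, turned negative (-0.09) under median centring, where the median of all genes was -0.32. Effects that no longer passed without the WT saline array were those of Nid2 (0.30), Lamc1 (0.59), Bmp1 (0.40) and Eln (0.59). The same held, with the TG saline array left out, for Lamc1 (0.41) and Loxl4 (0.11). The calls of Lamc1 (WT Ang-II 1, WT Ang-II 2 or TG Ang-II 2, adjusted p 0.0709 to 0.103), Bmp1 (WT Ang-II 1 or WT Ang-II 2, adjusted p 0.0519 to 0.0683) and Loxl4 (WT Ang-II 1, WT Ang-II 2, TG Ang-II 1 or TG Ang-II 2, adjusted p 0.0504 to 0.112) ended without an Ang-II array.

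Among 24 matrix proteases and inhibitors, 8 rose and 2 fell, with a median of 0.20 that became -0.03 under median centring. Ctsk, cathepsin K, a collagen-degrading cysteine protease, had 11.92 and 11.80 (TG Ang-II) and 12.13 and 12.13 (WT Ang-II), against 10.26 (TG saline) and 9.91 (WT saline), a 3.76-fold difference (effect 1.91 ± 0.11, adjusted p = 0.00222). Mmp2, the gelatinase made by mesenchymal cells, had 13.98 and 13.85 (TG Ang-II) and 13.74 and 13.85 (WT Ang-II), against 12.84 (TG saline) and 12.50 (WT saline). Its effect was 1.18 ± 0.11 (adjusted p = 0.00368). The inhibitor Timp4 went the other way, with 7.26 and 7.33 (TG Ang-II) and 7.24 and 7.17 (WT Ang-II), against 9.12 (TG saline) and 7.78 (WT saline). Its effect was -1.20 ± 0.11 (adjusted p = 0.00341). Its saline arrays differed by more than the Ang-II arrays did, and without the TG saline array its effect was -0.58 and did not pass.

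Growth factor genes gave a mixed picture. In the TGF-beta pathway, 2 of 17 rose and 1 fell. The ligand gene Tgfb2 rose by 0.87 ± 0.14 (adjusted p = 0.0144) and Skil, a repressor of SMAD signalling and itself a known target of the pathway, by 0.88 ± 0.11 (adjusted p = 0.00711). The ligand gene Tgfb1 did not pass (effect 0.02 ± 0.24, adjusted p = 0.96), with 7.29 and 7.02 (TG Ang-II) and 7.52 and 6.70 (WT Ang-II), against 6.78 (TG saline) and 7.44 (WT saline), the groups overlapping widely. In the insulin-like growth factor pathway, 4 of 10 rose and 1 fell. Igf1, the secreted growth factor, had 10.82 and 10.63 (TG Ang-II) and 10.76 and 10.83 (WT Ang-II), against 9.44 (TG saline) and 9.15 (WT saline) (effect 1.47 ± 0.12, adjusted p = 0.00319), the binding protein gene Igfbp3 rose by 0.88 ± 0.11 (adjusted p = 0.00694) and the receptor gene Igf2r by 0.59 ± 0.11 (adjusted p = 0.0196). The medians of both lists, 0.19 and 0.12, turned negative under median centring (-0.13 and -0.12). The calls of Tgfb2 (0.78), Skil (0.66), Igfbp3 (0.29) and Igf2r (0.47) ended without the TG saline array and that of Igf2r (0.70) without the WT saline array. Calls also ended without an Ang-II array for Tgfb2 (WT Ang-II 2, adjusted p 0.0509) and Igf2r (WT Ang-II 1 or WT Ang-II 2, adjusted p 0.0556 to 0.0608).

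Among 16 genes of the renin-angiotensin system and vasoactive signalling, 4 rose and 4 fell. Agtr1a, the AT1 receptor, did not pass (effect 0.28 ± 0.16, adjusted p = 0.262). It had 7.57 and 8.03 (TG Ang-II) and 6.69 and 6.53 (WT Ang-II), against 7.77 (TG saline) and 6.07 (WT saline), so that TG arrays stood above WT arrays in both treatments. Ednrb, the endothelin B receptor, had 10.21 and 10.12 (TG Ang-II) and 10.05 and 10.08 (WT Ang-II), against 8.70 (TG saline) and 8.53 (WT saline) (effect 1.5 ± 0.11, adjusted p = 0.00309), and the responses of TG (1.46) and WT (1.53) were close. Rgs5, a regulator of G-protein signalling found in smooth muscle and pericytes, rose by 0.82 ± 0.11 (adjusted p = 0.00815). Gucy1b1, a subunit of the soluble guanylate cyclase that senses nitric oxide, had 9.61 and 10.04 (TG Ang-II) and 10.01 and 10.20 (WT Ang-II), against 10.55 (TG saline) and 11.10 (WT saline). Its effect was -0.86 ± 0.16 (adjusted p = 0.0194). Without the TG saline array the effects of Rgs5 (0.37) and Gucy1b1 (-1.0) no longer passed, nor did Gucy1b1 (-0.73) without the WT saline array. For Gucy1b1 the same held without WT Ang-II replicate 1 or 2 (adjusted p 0.0523 to 0.0609). The list's median was 0.13, and it turned negative under median centring (-0.11), with detection required on all 6 arrays, and without the TG saline array.

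Smooth muscle contractile genes were lower with Ang-II where they moved. Of 23 measured, none rose, 8 fell, and 13 had every Ang-II array below both saline arrays, against 20.5% of all genes. The median effect was -0.36 (TG -0.13, WT -0.47). Ppp1r14a (CPI-17), an inhibitor of myosin phosphatase, had 11.07 and 11.03 (TG Ang-II) and 11.01 and 11.02 (WT Ang-II), against 11.96 (TG saline) and 12.18 (WT saline), a 2.05-fold decrease (effect -1.04 ± 0.11, adjusted p = 0.00405). Tagln (SM22), an actin-binding protein, had 12.28 and 12.31 (TG Ang-II) and 11.83 and 11.79 (WT Ang-II), against 12.55 (TG saline) and 12.87 (WT saline). Its effect was -0.66 ± 0.11 (adjusted p = 0.013). Filamin A, Flna, which cross-links actin, and leiomodin 1, Lmod1, which nucleates it, fell with effects of -0.60 ± 0.11 (adjusted p = 0.0172) and -0.51 ± 0.12 (adjusted p = 0.0332), and Cnn1, calponin, fell with overlapping arrays and an effect of -0.55 ± 0.14 (adjusted p = 0.0424). Myh11, the smooth muscle myosin heavy chain, lay below on all Ang-II arrays but did not pass (effect -0.36 ± 0.11, adjusted p = 0.0785). It had 13.81 and 13.95 (TG Ang-II) and 13.77 and 13.71 (WT Ang-II), against 14.11 (TG saline) and 14.22 (WT saline). Myh11 did pass in 4 alternative runs: without background correction, under median centring (where most calls were falls), with an offset of 50 and with a trended robust prior. Acta2, smooth muscle actin, was near equal in all groups (effect 0.06 ± 0.11, adjusted p = 0.71), and its 4 other probes ranged from -0.53 to 0.17.

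The count of contractile falls depended on the fit and on single arrays. It was 1 with the additive model, 4 with no detection filter and 17 under median centring, and the trended robust prior gave 15 falls and 3 rises. Falls were common under median centring: 6657 of all 16749 probes fell there, against 1264 as reported. The list's median less that of all genes was -0.27 under median centring, against -0.30 as reported. Alone, the WT response called 6 falls and no rise, the TG response 1 fall and 1 rise, and 2 to 4 falls were left when any 1 Ang-II array was left out. Without the WT saline array the effects of Tagln (-0.26), Flna (-0.30), Lmod1 (-0.08) and Cnn1 (-0.45) no longer passed, whereas Ppp1r14a kept its call under every alternative. Without the TG saline array that of Cnn1 (-0.66) did not pass. Calls that ended without an Ang-II array were those of Flna (WT Ang-II 1 or WT Ang-II 2, adjusted p 0.054 to 0.0553), Lmod1 (WT Ang-II 1, WT Ang-II 2, TG Ang-II 1 or TG Ang-II 2, adjusted p 0.0509 to 0.089) and Cnn1 (WT Ang-II 1, WT Ang-II 2 or TG Ang-II 1, adjusted p 0.0675 to 0.106). In pooled tissue, fewer cells of a type and less RNA per cell cannot be told apart, for this list and for all the marker lists below. The summed linear signal of the contractile list was 258782 and 259765 on the TG Ang-II arrays and 237082 and 237737 on the WT Ang-II arrays, against 285100 on the TG saline array and 311511 on the WT saline array.

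Contractile genes are known targets of serum response factor, which binds the CArG box. The window of 250 bases before to 50 after the annotated start was searched for this motif on both strands in RefSeq promoters of assembly GRCm38.p6. Of 20 contractile genes with a window, 3 (15%) held a match, against 1.81% of 27025 genes in the table and 1.75% of the genes measured here. The matches were in Myl9, Myl6 and Vcl, and none of the 7 windows of contractile genes that fell held one. Only the exact pattern CCWWWWWWGG (W for A or T) was counted, so a box with a substitution or outside the window was missed. Among members that passed, 12 of 471 falls (2.55%) and 14 of 652 rises (2.15%) with a window held a match. The promoters of both myosin light chain genes are shown because every Ang-II array lay below both saline arrays for them, although neither passed the test. Myl9, the regulatory light chain, had 14.16 and 13.95 (TG Ang-II) and 14.15 and 13.94 (WT Ang-II), against 14.47 (TG saline) and 14.51 (WT saline) (effect -0.44 ± 0.13, adjusted p = 0.0675), and Myl6, the essential light chain, 14.83 and 14.90 (TG Ang-II) and 14.95 and 14.99 (WT Ang-II), against 15.24 (TG saline) and 15.30 (WT saline). The effect of Myl6 was -0.35 ± 0.11 (adjusted p = 0.0739). Their windows lie at chr2:156775214-156775513 on the plus strand and chr10:128492960-128493259 on the minus strand, written 5′ to 3′ with the match in capitals, which starts 161 bases before the start of Myl9 and 50 bases before that of Myl6.
Myl9: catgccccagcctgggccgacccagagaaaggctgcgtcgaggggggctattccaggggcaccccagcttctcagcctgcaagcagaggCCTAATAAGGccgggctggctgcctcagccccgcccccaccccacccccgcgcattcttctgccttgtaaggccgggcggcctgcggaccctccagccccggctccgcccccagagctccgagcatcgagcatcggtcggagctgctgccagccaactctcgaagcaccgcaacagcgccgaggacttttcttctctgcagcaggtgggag
Myl6: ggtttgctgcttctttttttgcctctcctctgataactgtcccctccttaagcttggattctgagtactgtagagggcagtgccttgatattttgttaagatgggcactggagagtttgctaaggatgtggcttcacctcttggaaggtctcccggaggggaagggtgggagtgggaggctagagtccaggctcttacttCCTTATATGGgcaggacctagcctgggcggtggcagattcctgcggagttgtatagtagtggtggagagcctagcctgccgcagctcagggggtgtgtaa
A match describes the letters of the window and not a bound site.

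**Figure D4:**
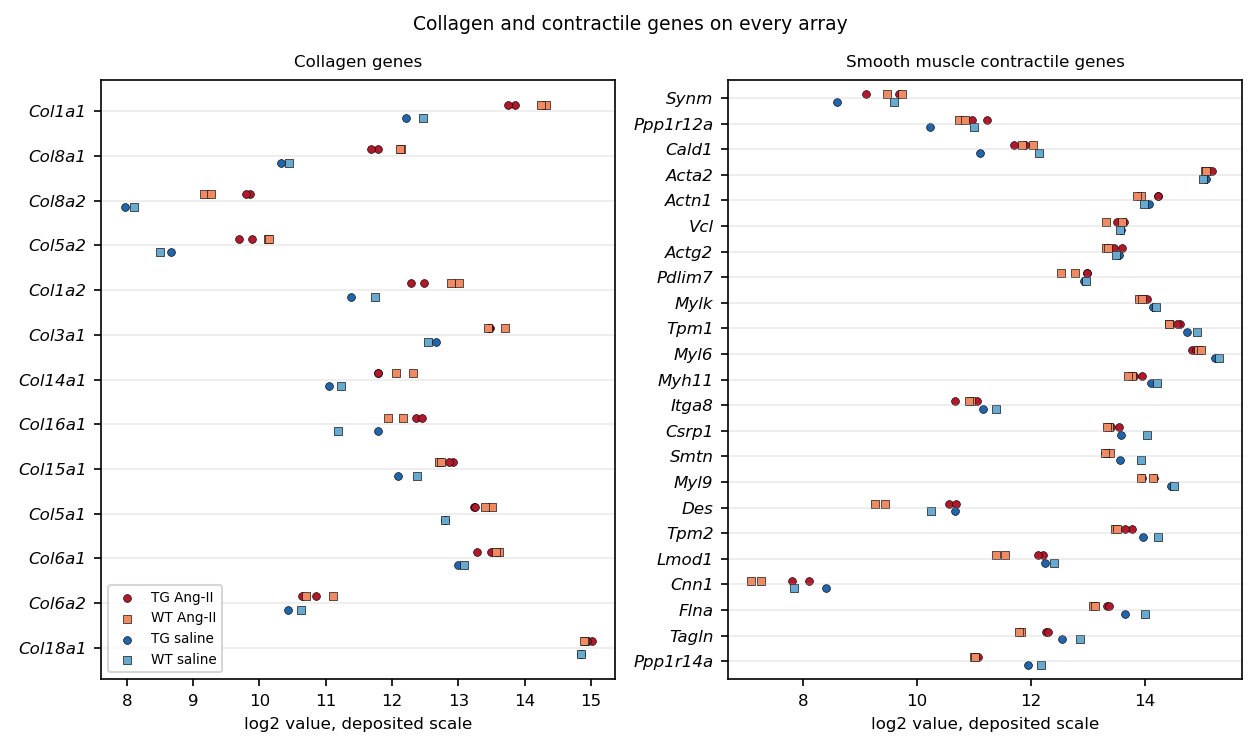
Log2 values (horizontal axis, deposited scale) of the 13 collagen genes and the 23 contractile genes measured, ordered by averaged effect, with each gene's Ang-II arrays drawn just above its saline arrays and each point 1 array. Collagen values with Ang-II lie right of both saline values in every row. In the lower rows of the contractile panel they lie left, with the WT Ang-II arrays lowest for Tagln, Lmod1 and Flna.

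Transcriptional regulators of smooth muscle moved both ways: 4 of 18 rose and 5 fell. Myocd, myocardin, the coactivator of serum response factor, had 11.17 and 11.13 (TG Ang-II) and 10.62 and 10.42 (WT Ang-II), against 9.65 (TG saline) and 9.91 (WT saline) (effect 1.05 ± 0.12, adjusted p = 0.00505) and its other probe gave 1.00, so that it was higher while the contractile list was lower. Prrx1, a homeobox factor of mesenchymal cells, rose by 1.09 ± 0.12 (adjusted p = 0.00454) and Hdac4, a class IIa histone deacetylase and CaMKII substrate, by 0.97 ± 0.11 (adjusted p = 0.00507). Hey2, a Notch target in arterial cells, fell with 8.63 and 8.48 (TG Ang-II) and 9.37 and 9.32 (WT Ang-II), against 9.75 (TG saline) and 9.69 (WT saline). Its effect was -0.77 ± 0.11 (adjusted p = 0.01). Among 22 genes of calcium and potassium handling, 5 rose and 1 fell. The potassium channel gene Kcna5 had 6.98 and 6.88 (TG Ang-II) and 6.42 and 6.75 (WT Ang-II), against 5.74 (TG saline) and 5.35 (WT saline) (effect 1.21 ± 0.14, adjusted p = 0.00513), the calcium channel subunit genes Cacnb2 and Cacna2d1 rose by 1.10 ± 0.14 (adjusted p = 0.00662) and 0.85 ± 0.16 (adjusted p = 0.0191), and Atp2b1, a plasma membrane calcium pump, by 0.64 ± 0.14 (adjusted p = 0.03). The other probes of Cacna2d1 gave -0.25 and 0.13. Without the TG saline array the effects of Myocd (0.60), Hdac4 (0.32), Hey2 (-0.35), Cacnb2 (0.70), Cacna2d1 (0.42) and Atp2b1 (0.63) no longer passed, nor did Atp2b1 (0.65) without the WT saline array. The calls of Cacna2d1 (WT Ang-II 1, adjusted p 0.0564) and Atp2b1 (WT Ang-II 1 or WT Ang-II 2, adjusted p 0.0664 to 0.0829) ended without an Ang-II array.

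Of 23 macrophage and monocyte markers measured, 21 rose, none fell, and 21 had every Ang-II array above both saline arrays, with a median effect of 1.02 (TG 0.91, WT 1.16). The TG response alone called 13 and the WT response alone 19, and 17 to 22 rose with any 1 Ang-II array left out. Under median centring, 16 had every Ang-II array above both saline arrays, 20 rose and none fell. Mpeg1, perforin-2, a pore-forming protein of macrophages, had 9.59 and 9.55 (TG Ang-II) and 9.67 and 9.72 (WT Ang-II), against 7.80 (TG saline) and 7.98 (WT saline), a 3.35-fold difference (effect 1.74 ± 0.11, adjusted p = 0.00226), with near-equal responses in TG (1.77) and WT (1.71). Fcgr3, an activating Fc receptor, had 9.32 and 9.32 (TG Ang-II) and 8.83 and 8.96 (WT Ang-II), against 7.96 (TG saline) and 7.54 (WT saline). Its effect was 1.36 ± 0.11 (adjusted p = 0.00319). Ms4a7, a membrane protein of tissue macrophages, rose by 1.59 ± 0.11 (adjusted p = 0.00308), and Cx3cr1, the fractalkine receptor, was at least 2.86-fold higher (effect 1.68 ± 0.23, adjusted p = 0.00801), its saline arrays being at background. The smallest effect of the list was 0.35. The summed linear signal of the 23 markers was 37428 and 38277 on the TG Ang-II arrays and 45001 and 45938 on the WT Ang-II arrays, against 20110 on the TG saline array and 22686 on the WT saline array, and the groups did not overlap.

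Genes of antigen presentation rose with them. Of 11 MHC class II and antigen presentation genes, 9 rose and none fell, with a median of 0.97 (TG 0.64, WT 1.41). Median centring gave 9 rises and 1 fall. H2-Ab1, the class II beta chain, had 11.99 and 12.18 (TG Ang-II) and 11.46 and 11.45 (WT Ang-II), against 10.53 (TG saline) and 9.41 (WT saline) (effect 1.80 ± 0.12, adjusted p = 0.00257), and Cd74, the invariant chain, had 11.97 and 11.98 (TG Ang-II) and 12.10 and 11.98 (WT Ang-II), against 10.86 (TG saline) and 10.31 (WT saline). Its effect was 1.42 ± 0.11 (adjusted p = 0.00319). H2-Aa and H2-Eb1, the other class II chains, rose by 1.5 ± 0.23 (adjusted p = 0.012) and 1.53 ± 0.12 (adjusted p = 0.00319). Within saline, H2-Ab1 and Cd74 were higher in TG than in WT, and all Ang-II arrays lay above both. Alone, the TG response called 5 and the WT response 8 of the list, and H2-Aa lost its call without the TG saline array (1.41).

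Of 10 complement genes 6 rose and 1 fell, with a median of 0.77. C1qb, a chain of the recognition molecule C1q that macrophages make, had 10.19 and 10.46 (TG Ang-II) and 10.76 and 10.54 (WT Ang-II), against 9.47 (TG saline) and 9.64 (WT saline). Its effect was 0.93 ± 0.14 (adjusted p = 0.0106). C4b and Cfb, components of the classical and the alternative pathway, rose by 1.21 ± 0.12 (adjusted p = 0.00381) and 0.95 ± 0.14 (adjusted p = 0.0114), though the other probes of C4b gave -0.18 and 0.05. C7, of the terminal pathway, fell with 7.20 and 7.17 (TG Ang-II) and 8.25 and 8.04 (WT Ang-II), against 8.73 (TG saline) and 8.64 (WT saline). Its effect was -1.02 ± 0.12 (adjusted p = 0.00542). Among 20 chemokines and cytokines, 6 rose and 1 fell. Beside Ccl8, Il1b, the inflammatory cytokine, was at least 1.89-fold higher (effect 1.25 ± 0.14, adjusted p = 0.00491), Cxcl12, a chemokine of stromal cells, rose by 0.80 ± 0.11 (adjusted p = 0.00921), and Ccl21a, a lymphoid chemokine, by 0.82 ± 0.12 (adjusted p = 0.00956), the last with a response of 1.52 in TG and 0.12 in WT, a difference that did not pass its test (adjusted p = 0.0666). Effects that no longer passed without the WT saline array were those of C1qb (0.85), Cfb (0.75), Il1b (0.64), Cxcl12 (0.44) and Cx3cr1 (1.15). The same held, with the TG saline array left out, for C7 (-0.49) and Ccl21a (0.12). Spp1 and Ccl2 had no probe that passed the detection filter or bore their name, and are not analysed here.

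Other immune lists were short. Of 5 lymphocyte markers measured 2 rose and 1 fell. Cd52, a surface glycoprotein of lymphocytes and monocytes, had 8.83 and 8.85 (TG Ang-II) and 8.96 and 8.84 (WT Ang-II), against 7.84 (TG saline) and 7.48 (WT saline) (effect 1.21 ± 0.11, adjusted p = 0.00341), and Il7r rose by 0.43 ± 0.11 (adjusted p = 0.0475), at least 1.08-fold, with both saline arrays and 2 Ang-II arrays at background. Of 8 mast cell markers 2 rose and none fell, Kit, the stem cell factor receptor, by 0.48 ± 0.11 (adjusted p = 0.0358). The calls of Il7r and Kit both ended when any single array was left out, at effects between 0.26 and 0.60 for Il7r and between 0.44 and 0.52 for Kit. The median of the lymphocyte list, 0.09, changed sign under median centring, with probes averaged per gene, and without the TG saline array.

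Of 20 adventitial fibroblast markers measured, 10 rose, 1 fell and 14 had every Ang-II array above both saline arrays. Alone, the TG response called 5 rises and the WT response 7, with no fall, and the median was 0.48 (TG 0.44, WT 0.55). Median centring gave 7 rises and 3 falls, with 9 genes above without overlap. The list shares Lum, Col14a1 and other genes with the matrix lists above. Fap, a serine protease of activated fibroblasts, had 9.02 and 8.69 (TG Ang-II) and 9.04 and 9.22 (WT Ang-II), against 7.78 (TG saline) and 7.21 (WT saline). Its effect was 1.5 ± 0.14 (adjusted p = 0.00368). Pdpn, podoplanin, had 11.51 and 11.51 (TG Ang-II) and 11.26 and 11.28 (WT Ang-II), against 10.28 (TG saline) and 10.54 (WT saline). Its effect was 0.98 ± 0.10 (adjusted p = 0.0045). Lum, the collagen-binding proteoglycan lumican, and Col14a1, a collagen of fibril surfaces, rose by 1.08 ± 0.11 (adjusted p = 0.00416) and 0.85 ± 0.12 (adjusted p = 0.01), the last without a call when the WT saline array was left out (0.74). The summed linear signal of the list was 121233 and 118870 on the TG Ang-II arrays and 114152 and 110343 on the WT Ang-II arrays, against 85340 on the TG saline array and 76790 on the WT saline array, again without overlap.

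Endothelial markers did not move as a group. Of 19 measured, 2 rose and 4 fell, and the median was -0.22 (TG -0.40, WT -0.04). Pecam1, the junctional protein CD31, had 10.66 and 10.77 (TG Ang-II) and 10.35 and 10.08 (WT Ang-II), against 11.69 (TG saline) and 11.02 (WT saline). Its effect was -0.89 ± 0.13 (adjusted p = 0.00978). Robo4, an endothelial guidance receptor, had 9.35 and 9.29 (TG Ang-II) and 8.99 and 9.15 (WT Ang-II), against 8.20 (TG saline) and 7.78 (WT saline) (effect 1.21 ± 0.11, adjusted p = 0.00368), and Cdh5, VE-cadherin, rose by 0.59 ± 0.11 (adjusted p = 0.0203). The calls of Pecam1 (-0.80 without the TG saline array) and Cdh5 (0.15 without the WT saline array) each rested on a saline array, and that of Cdh5 (WT Ang-II 1 or WT Ang-II 2, adjusted p 0.0593 to 0.0625) on Ang-II arrays too. The TG saline array stood high for this list, with a summed signal of 22630 and 22083 on the TG Ang-II arrays and 19878 and 18868 on the WT Ang-II arrays, against 28666 on the TG saline array and 19813 on the WT saline array. Of 7 pericyte and Schwann cell markers, 1 rose, Rgs5, and none fell.

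Of 21 cell division genes measured, 9 rose and none fell, and the median was 0.57, or 0.26 with genes at background set to their bound. Several were kept through the Ang-II arrays alone: of the 13 detected on all 6 arrays 3 rose and none fell, with a median of 0.05. Cenpa, the centromeric histone variant, had 9.32 and 9.07 (TG Ang-II) and 10.13 and 10.19 (WT Ang-II), against 8.06 (TG saline) and 8.15 (WT saline) (effect 1.57 ± 0.12, adjusted p = 0.00319), and Cdc20, an activator of the anaphase-promoting complex, had 7.48 and 7.22 (TG Ang-II) and 8.14 and 8.20 (WT Ang-II), against 6.18 (TG saline) and 6.56 (WT saline). Its effect was 1.39 ± 0.13 (adjusted p = 0.00341). Top2a, topoisomerase II alpha, and Cdk1, the mitotic kinase, were not well above background with saline and were at least 1.5-fold and 1.7-fold higher (effect 1.47 ± 0.16, adjusted p = 0.00477 for Top2a, and effect 1.26 ± 0.19, adjusted p = 0.0114 for Cdk1). The response of Cenpa was 1.13 in TG and 2.01 in WT, and the calls of Top2a (0.97) and Cdk1 (0.79) ended without the WT saline array. The difference between the responses did not pass for any of these 4 genes (adjusted p from 0.202 to 0.519).

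Lists of fat, red cell and heart genes passed in number, but their averages do not describe both genotypes. Of 12 brown adipocyte genes 10 rose (TG median 0.10, WT median 1.57), of 19 white adipocyte and lipid synthesis genes 11 rose and 1 fell (TG 0.0027, WT 1.31), and of 6 red cell genes 5 rose (TG 0.19, WT 1.96). In TG alone 2, 0 and 0 genes of these lists rose. Ucp1, the uncoupling protein of brown fat, had 10.59 and 10.64 (TG Ang-II) and 11.62 and 11.76 (WT Ang-II), against 10.46 (TG saline) and 8.93 (WT saline) (effect 1.46 ± 0.11, adjusted p = 0.00319), so that the WT saline array was the only low one, and TG minus WT was -2.60 ± 0.22 (adjusted p = 0.0126). Adipoq, adiponectin, had 12.15 and 11.89 (TG Ang-II) and 12.42 and 12.57 (WT Ang-II), against 11.50 (TG saline) and 10.70 (WT saline) (effect 1.16 ± 0.13, adjusted p = 0.00507), and Hbb-bt, a beta globin, 13.73 and 13.86 (TG Ang-II) and 14.76 and 14.68 (WT Ang-II), against 13.62 (TG saline) and 12.70 (WT saline). Its effect was 1.10 ± 0.11 (adjusted p = 0.00409). Without the WT saline array the effects of Lpl (0.74), Adipoq (0.52), Scd1 (0.47), Cpt1b (0.74), Ucp1 (0.16), Cox8b (0.36), Alas2 (0.23), Hbb-bt (0.18), Hbb-bs (0.21) and Hba-a1 (0.13) did not pass, of the genes named here and in the closing paragraphs. Cox7a1, a cytochrome c oxidase subunit of brown fat and muscle, kept its call, with 1.36 ± 0.11 (adjusted p = 0.00319).

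Heart and skeletal muscle genes moved in opposite directions. Of 25, 18 rose and 1 fell with the averaged effect, yet the median was 3.16 in TG and -1.03 in WT, 0 had every Ang-II array above both saline arrays, and for 22 the difference between responses passed. Mb, myoglobin, had 12.56 and 12.49 (TG Ang-II) and 5.88 and 5.78 (WT Ang-II), against 8.31 (TG saline) and 8.03 (WT saline), and its average of 1.01 ± 0.11 (adjusted p = 0.00477) describes neither genotype. Nppa, atrial natriuretic peptide, had 9.30 and 9.11 (TG Ang-II) and 4.50 and 4.52 (WT Ang-II), against 4.58 (TG saline) and 7.67 (WT saline). Sspn, sarcospan, which is not on this list, had 12.18 and 12.42 (TG Ang-II) and 4.39 and 4.43 (WT Ang-II), against 12.43 (TG saline) and 11.97 (WT saline). Sspn was thus low on the WT Ang-II arrays only. Myl7, the atrial light chain, was the 1 list member that fell with all Ang-II arrays below (effect -1.05 ± 0.11, adjusted p = 0.00396), and did not pass without the WT saline array (-0.05). The summed linear signals of the list were 49861 and 47517 on the TG Ang-II arrays and 6046 and 6205 on the WT Ang-II arrays, against 9628 on the TG saline array and 11466 on the WT saline array, those of the white fat list 56150 and 56320 on the TG Ang-II arrays and 76935 and 76819 on the WT Ang-II arrays, against 49272 on the TG saline array and 36839 on the WT saline array, and those of the red cell list 47088 and 52216 on the TG Ang-II arrays and 92386 and 91570 on the WT Ang-II arrays, against 43997 on the TG saline array and 24431 on the WT saline array. Their part in the shared effect of other genes was not tested. The summed macrophage, fibroblast and contractile signals did not overlap between treatments in either genotype, and neither did the white fat, brown fat and red cell sums. The heart list ran in opposite directions.

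**Figure D5:**
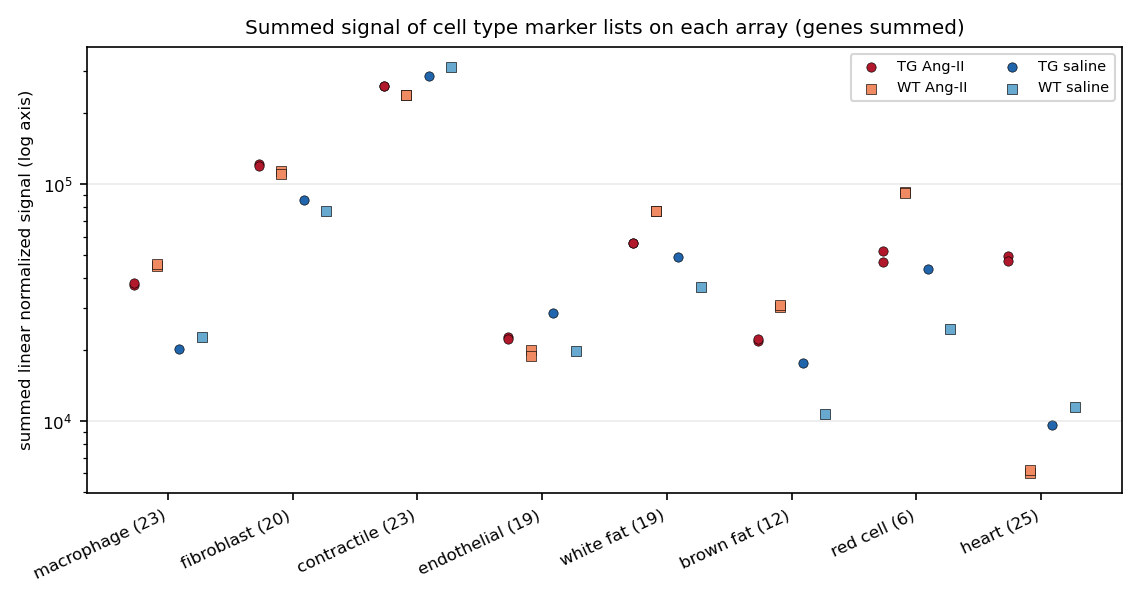
Summed linear normalized signal (vertical log axis) of 8 marker lists on each of the 6 arrays, TG in circles and WT in squares, Ang-II arrays at left of the saline arrays, each point 1 array and the number of genes summed in brackets. Macrophage, fibroblast, white fat, brown fat and red cell sums are higher on all Ang-II arrays than on both saline arrays. Contractile sums are lower on all Ang-II arrays, whereas the heart sums split by genotype within Ang-II.

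Of 19 fatty acid oxidation genes 7 rose and none fell, while 11 had every Ang-II array above and 1 every Ang-II array below both saline arrays (TG median 0.15, WT 0.54). Alone, the TG response called 1 of them, Angptl4, and the WT response 8. The summed white fat signal, given above, was also lowest on the WT saline array, and its part in these rises was not tested. Angptl4, a secreted inhibitor of lipoprotein lipase, had 10.92 and 10.87 (TG Ang-II) and 10.95 and 10.86 (WT Ang-II), against 10.07 (TG saline) and 9.57 (WT saline) (effect 1.08 ± 0.11, adjusted p = 0.00396), and Pdk4, which inhibits pyruvate dehydrogenase, rose by 0.99 ± 0.14 (adjusted p = 0.00956). Acaa2, of the last step of beta-oxidation, rose by 0.72 ± 0.17 (adjusted p = 0.0404) and Cpt1b, the muscle-type carnitine palmitoyltransferase, by 1.52 ± 0.12 (adjusted p = 0.00317). Without the WT saline array Pdk4 (0.86), Acaa2 (0.04) and Cpt1b (0.74) did not pass, and Acaa2 also lost its call without WT Ang-II replicate 2 or either TG Ang-II array (adjusted p 0.0548 to 0.0626). Of 25 respiratory chain subunits none passed in the limma fit, with 3 above at an unadjusted p under 0.05 and none below, and the TG (-0.08) and WT (0.39) medians had opposite signs. The TG median of all genes was -0.06. The largest effects, of Sdhd and Cycs, were 0.34 ± 0.20 (adjusted p = 0.276) and 0.33 ± 0.14 (adjusted p = 0.145).

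Among 25 enzymes that make or remove oxidants 6 rose and 1 fell. Ncf4, a subunit of the phagocyte NADPH oxidase, had 6.90 and 6.90 (TG Ang-II) and 7.59 and 7.69 (WT Ang-II), against 6.31 (TG saline) and 5.6 (WT saline) (effect 1.31 ± 0.11, adjusted p = 0.00319), Gpx3, the secreted glutathione peroxidase, had 12.45 and 12.32 (TG Ang-II) and 12.26 and 12.34 (WT Ang-II), against 11.75 (TG saline) and 11.51 (WT saline) (effect 0.71 ± 0.11, adjusted p = 0.0123), and Gsta4 and Hmox1, a glutathione transferase and heme oxygenase 1, rose by 1.0 ± 0.17 (adjusted p = 0.0142) and 0.69 ± 0.14 (adjusted p = 0.028). None of the list's rises was called in TG alone (0, against 6 in WT), and without the WT saline array the effects of Ncf4 (0.59), Gpx3 (0.63), Gsta4 (0.46) and Hmox1 (0.17) did not pass. Gsta4 and Hmox1 also lost their calls without an Ang-II array: Gsta4 (WT Ang-II 1, adjusted p 0.0501) and Hmox1 (WT Ang-II 2, adjusted p 0.0569). Of 20 chaperones and unfolded protein response genes of the endoplasmic reticulum 5 rose and none fell, Asns, asparagine synthetase, by 0.97 ± 0.13 (adjusted p = 0.00813) and Herpud1 by 0.53 ± 0.11 (adjusted p = 0.0261). For Pdia4, a disulfide isomerase, the average comes from a low TG saline array: it had 11.05 and 11.03 (TG Ang-II) and 11.15 and 11.00 (WT Ang-II), against 9.38 (TG saline) and 10.97 (WT saline). Of 16 heat shock proteins 2 rose and 1 fell, Cryab, the small heat shock protein alpha-B-crystallin, with -0.50 ± 0.11 (adjusted p = 0.0328). The medians of the oxidant, reticulum and heat shock lists changed sign under median centring. Calls of Herpud1 (WT Ang-II 1, WT Ang-II 2 or TG Ang-II 2, adjusted p 0.0517 to 0.0737) and Cryab (WT Ang-II 1, WT Ang-II 2, TG Ang-II 1 or TG Ang-II 2, adjusted p 0.0567 to 0.086) ended without an Ang-II array, those of Herpud1 (0.31) and Cryab (-0.49) without the WT saline array, and those of Pdia4 (0.11) and Cryab (-0.51) without the TG saline array.

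Of 15 immediate-early genes, which report recent stimulation of cells, 4 fell and 1 rose. Fosb had 6.78 and 7.05 (TG Ang-II) and 7.39 and 7.16 (WT Ang-II), against 8.27 (TG saline) and 8.26 (WT saline) (effect -1.17 ± 0.14, adjusted p = 0.00561), and all 4 Ang-II arrays lay well below. Fos had 9.43 and 9.50 (TG Ang-II) and 9.48 and 9.58 (WT Ang-II), against 11.30 (TG saline) and 9.96 (WT saline) (effect -1.13 ± 0.11, adjusted p = 0.00373), with a TG saline array far above the WT saline array, and Egr3 fell with an effect of -0.73 ± 0.12 (adjusted p = 0.0127). Nr4a2, an orphan nuclear receptor, rose by 0.94 ± 0.14 (adjusted p = 0.0116). Of 13 circadian clock genes 4 fell and none rose, but the medians of TG (0.05) and WT (-0.49) had opposite signs. Dbp, a clock output factor, had 12.01 and 12.04 (TG Ang-II) and 11.19 and 11.23 (WT Ang-II), against 12.29 (TG saline) and 12.09 (WT saline) (effect -0.57 ± 0.11, adjusted p = 0.0193), and Cry2, a clock repressor, fell with an effect of -0.66 ± 0.16 (adjusted p = 0.0427). The sources used here give no time of day of tissue collection. Without the TG saline array the effects of Fos (-0.43), Egr3 (-0.69) and Cry2 (-0.78) did not pass, and without the WT saline array those of Nr4a2 (0.53), Dbp (-0.26) and Cry2 (-0.53) did not. Calls of Dbp (WT Ang-II 1 or WT Ang-II 2, adjusted p 0.0576 to 0.0596) and Cry2 (WT Ang-II 2, TG Ang-II 1 or TG Ang-II 2, adjusted p 0.0544 to 0.0712) ended without an Ang-II array.

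Interferon-stimulated genes rose at near the share of all genes (10.4%): 2 of 18 rose, none fell, and the median was -0.13. Irf8, a transcription factor of macrophages and dendritic cells, had 7.08 and 6.98 (TG Ang-II) and 6.90 and 6.90 (WT Ang-II), against 5.95 (TG saline) and 5.89 (WT saline) (effect 1.05 ± 0.11, adjusted p = 0.00415), with responses of 1.08 in TG and 1.02 in WT, and Ifi27l2a rose by 0.53 ± 0.11 (adjusted p = 0.0286). Of 17 lysosomal genes 2 rose and 1 fell, Ctsa, cathepsin A, by 0.64 ± 0.12 (adjusted p = 0.02) (its other probe gave -0.54) and Mcoln1, a lysosomal calcium channel, with -0.81 ± 0.15 (adjusted p = 0.0206). Of 13 cartilage-type genes 3 rose and 2 fell. Matn4, matrilin 4, had 8.93 and 8.70 (TG Ang-II) and 8.06 and 8.07 (WT Ang-II), against 7.27 (TG saline) and 6.66 (WT saline) (effect 1.47 ± 0.12, adjusted p = 0.00319) and Cytl1, a secreted protein of cartilage, had 11.52 and 11.37 (TG Ang-II) and 10.72 and 10.75 (WT Ang-II), against 12.65 (TG saline) and 12.06 (WT saline) (effect -1.27 ± 0.11, adjusted p = 0.00334), each without overlap. Comp, cartilage oligomeric matrix protein, rose by 0.77 ± 0.12 (adjusted p = 0.0132) and Sox9, the chondrocyte regulator, by 0.80 ± 0.12 (adjusted p = 0.0114), while the other Sox9 probe gave -0.49. The lysosomal and cartilage medians, 0.29 and 0.11, were both -0.02 under median centring. Effects that no longer passed without the WT saline array were those of Ifi27l2a (0.24), Ctsa (0.34), Mcoln1 (-0.74) and Sox9 (0.79). The same held, with the TG saline array left out, for Mcoln1 (-0.87) and Comp (0.51). Calls of Ifi27l2a (WT Ang-II 1, WT Ang-II 2 or TG Ang-II 2, adjusted p 0.0551 to 0.0796), Ctsa (WT Ang-II 1 or WT Ang-II 2, adjusted p 0.0577 to 0.0632) and Mcoln1 (WT Ang-II 1 or WT Ang-II 2, adjusted p 0.0631 to 0.0632) ended without an Ang-II array.

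Among the 100 largest effects of members that passed, the genes most alike in both genotypes were Depp1, Adam23, Mpeg1, H2ac24 and Cntn2. H2ac24, a histone H2A gene, had 11.08 and 10.82 (TG Ang-II) and 11.14 and 11.25 (WT Ang-II), against 9.39 (TG saline) and 9.63 (WT saline) (effect 1.56 ± 0.13, adjusted p = 0.00319) with a response of 1.56 in TG and 1.56 in WT. Cntn2, a neural adhesion protein, was at least 1.83-fold higher, with responses of 1.63 in TG and 1.62 in WT against saline arrays at background. The least alike were Hnrnpl, Me1, Ucp1, Pnpla3 and Clstn3. Pnpla3, a lipase of fat and liver, had 8.81 and 8.84 (TG Ang-II) and 9.42 and 9.34 (WT Ang-II), against 8.42 (TG saline) and 6.34 (WT saline), and Clstn3, calsyntenin 3, had 8.48 and 8.61 (TG Ang-II) and 9.29 and 9.50 (WT Ang-II), against 8.31 (TG saline) and 6.65 (WT saline), both with a single low array, that of WT saline, and without it Pnpla3 (0.40) and Clstn3 (0.23) did not pass. At the edge of the rule, the lowest Ang-II array of Gpt2 and Lrig1 cleared the higher saline array by 0.0001 and 0.0008, while for Anpep and Neurl1a it fell short by 0.0008 and 0.0011. Below, Acad9 and H1f10 cleared the line by 0.0002 each, and the tied values of Zfp219 and Pld1 put them just outside. Gpt2 passed the test (effect 0.57 ± 0.13, adjusted p = 0.0335) and lost its call without either saline array (0.61 in TG alone, 0.52 in WT alone) or without 1 of the arrays WT Ang-II 2 and TG Ang-II 1, and none of the other 7 genes at the edge passed. For 447 members that passed, another probe of the gene was kept, and all such probes gave the same sign for 381.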

How the data were processed

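Thoracic aorta RNA was measured on 6 Illumina BeadChips, 1 each for TG saline and WT saline and 2 each for TG Ang-II and WT Ang-II. Per the labels' protocols, Trizol was used for RNA extraction and a TargetAmp-Nano kit for biotin labelling, and the submitters' processing notes name GenomeStudio 2011.1 and limma 3.22.1 without roles. The deposited intensity columns hold each probe's mean bead signal on a linear scale, and the deposited detection p-value columns the chance of such a signal from background, per the file headers. The deposited value table holds normalized log2 values, and the sources used here do not say how the authors made it. It holds 271686 values, each equal within 1e-08 to that of limma's neqc (normexp background correction from the detection p-values, offset of 16, quantile normalization) run on the intensities. Bead counts and standard errors were not used. The deposited columns were matched to samples by name.

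The deposited log2 values were used. Probes were kept where 2 or more of the 6 arrays gave a detection p under 0.01, and 14523 of these 16749 probes had 1 gene symbol, from the platform annotation updated through RefSeq (GRCm38.p6). Each of 9837 genes was represented by its kept probe with the highest mean over all arrays, and a gene whose probes disagree is named with their range. A model of 4 group means was fitted in limma 3.58.1 (R 4.3.3, eBayes) with a prior SD of 0.15 on 3.75 degrees of freedom and 2 residual ones. Adjusted p-values are Benjamini-Hochberg values over all kept probes, and a probe passed under 0.05. Where a probe was not detected on any array of the dimmer group, the fold is a bound, from the brighter group's mean and, per dim array, the higher of its own value and that array's lowest detected value (5.54 to 5.69). With so few arrays, their number limits the precision. The fit was tested on simulated data.

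Members and gene lists were chosen with earlier results of these data known, so the lists are not independent evidence. Genes named are the 15 largest rises and falls that passed without overlap, up to 4 such members per list or the 2 largest where there were none, the 5 most and 5 least alike in both genotypes among the 100 largest, 2 on each side of the rule's edge in each direction, and fixed genes, leaving out names of the RIKEN, Gm, LOC and accession kind. Myl9, Myl6 and Vcl were named for their promoters. Of the fixed genes Spp1 and Ccl2 are not analysed here. Alternatives were quantile normalization without background correction, median centring, an offset of 50, neqc from the intensities, array weights, no detection filter or a stricter one (all 6 arrays), an average over each gene's probes, a trended robust prior, an additive model, a replicate block, a minimum space of 0.5 log2 units between the groups, and each array left out.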

Additional observations from a re-analysis of the deposited data

Results flagged for a closer look

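Among the genes named above, the TG and WT responses differed by the test of the difference itself (limma, TG minus WT, log2) for 19, as values with no explanation. Higher in TG than in WT were Hnrnpl at 4.92 ± 0.22, Me1 at 4.50 ± 0.23, Trbv13-2 at 2.17 ± 0.21, Cops8 at 2.32 ± 0.29, Lypd6 at 1.57 ± 0.23, Pdia4 at 1.55 ± 0.22, Myl7 at 1.99 ± 0.21, Sspn at 7.43 ± 0.24, Mb at 6.41 ± 0.22 and Nppa at 7.78 ± 0.23. Lower in TG were Cemip at -2.38 ± 0.21, Ucp1 at -2.60 ± 0.22, Cox8b at -1.47 ± 0.21, Alas2 at -2.36 ± 0.22, Hbb-bt at -1.85 ± 0.22, Hbb-bs at -1.69 ± 0.24, Hba-a1 at -1.69 ± 0.21, Pnpla3 at -2.63 ± 0.21 and Clstn3 at -2.51 ± 0.24. Adjusted p-values lay between 0.000974 for Mb and 0.0495 for Lypd6. For these genes the averaged effect is a mean of unequal responses, and each rests on 1 saline array per genotype. The Ang-II arrays of Nppa, Sspn and Mb overlapped the saline arrays. Where a probe was not well above background the size of the difference is not measured: both WT Ang-II arrays of Me1, Trbv13-2, Lypd6, Sspn and Nppa, the TG saline array of Nppa and both saline arrays of Cemip were so. With those arrays raised to the lowest detected value, TG minus WT was 3.52 for Me1, 1.7 for Trbv13-2, 0.98 for Lypd6, 6.27 for Sspn, 5.65 for Nppa and -2.46 for Cemip, beside 6.41 for Mb, so that no order among these genes is read from the fitted values.

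For 5 gene lists the median difference from saline lay on one side of 0 on both TG Ang-II arrays and on the other side on both WT Ang-II arrays, each set against the saline array of its genotype. The difference was not tested. The medians of all genes were themselves below 0, -0.05 and -0.06 on the TG Ang-II arrays and -0.04 on both WT Ang-II arrays. On the TG Ang-II arrays, respiratory chain (-0.05 and -0.09) and white fat (-0.04 and -0.06) medians lay near those of all genes. Between the median responses, TG minus WT was 4.19 for heart and skeletal muscle genes, 0.54 for circadian clock genes, -0.31 for heat shock proteins, -0.47 for respiratory chain subunits and -1.31 for white adipocyte and lipid synthesis genes.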

How the results depend on the processing

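The number of probes called was 3209 as reported, 8361 under median centring, 2106 of 45281 with no detection filter, 1838 with an additive model, and 1268 to 2891 with 1 array left out. The share that rose (60.6%) was 20.4% under median centring, and 51.7% and 52.5% without background correction and with a trended robust prior. It was 53.1% with detection on all 6 arrays, and 62.9% to 77.1% with 1 array left out. Genes with every Ang-II array above both saline arrays (1517) numbered 679 under median centring, 327 with a space of at least 0.5, and 1667 to 2648 with 1 array left out. Genes below (2018) numbered 4664, 75, and 2279 to 3301 in the same settings. Probes with unequal TG and WT responses (199) numbered 730 without background correction, 315 under median centring, 446 with an offset of 50, 60 with no filter, 775 with a trended robust prior, and 28 to 133 with 1 array left out. Fewer samples or more probes tested set part of these counts, and otherwise the cause was not tested. Of 144 named genes that passed, 61 kept their call in every alternative run, the additive model ended 43 calls, no detection filter 16, median centring 11, and leaving out the WT or the TG saline array 59 and 33. Calls were also gained: of 17 named genes that did not pass, 6 passed under median centring, and 4 each without background correction and with a trended robust prior. The averages of Mb (-2.20) and Nppa (-3.16) reversed without the TG saline array, and were 4.21 and 4.62 without the WT saline array. With replicate numbers as a block, 3442 probes were called and 1 named call ended. Same-numbered Ang-II arrays of TG and WT deviated together only weakly (r = 0.12 over 16749 probes, 2 pairs), so the numbers were not taken as pairing. The quantile step sets all arrays to 1 distribution, so a shift of the bulk of genes is not measured, and probes near background give bounds only.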

Other observations

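The groups below were put together after their values were seen, and are given as values. Histone genes of the replication-dependent clusters split in part by histone type. Of 35 measured, 12 rose and 1 fell, and the risers were H2A genes except for H4c1. The H2A gene H2ac19 did not pass (effect 0.26 ± 0.11, adjusted p = 0.144). The other probe of H2ac20 gave -0.35 and those of H2ac18 gave -0.30 to 0.47, so these probes disagree on direction. Those of H2ac7, H2ac10 and H2ac13 were higher with Ang-II as well. H2ac24 had 11.08 and 10.82 (TG Ang-II) and 11.14 and 11.25 (WT Ang-II), against 9.39 (TG saline) and 9.63 (WT saline). H2ac22 had 9.60 and 9.46 (TG Ang-II) and 9.67 and 10.02 (WT Ang-II), against 8.0 (TG saline) and 8.55 (WT saline) (effect 1.41 ± 0.14, adjusted p = 0.00399), H2ac12 had an effect of 1.38 ± 0.13 (adjusted p = 0.00368), and H2ac7 one of 1.38 ± 0.12 (adjusted p = 0.0032). All Ang-II arrays were above both saline arrays for these 4 genes, in both genotypes. Among H2B genes H2bc21 fell with overlapping arrays (effect -0.63 ± 0.12, adjusted p = 0.0217) and none rose. H2A genes are near-identical copies of each other, so their probes may share transcripts and do not count as separate measurements.

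All 4 measured alpha-1-antitrypsin paralogs fell, Serpina1a by at least 1.22-fold to a level not well above background on any Ang-II array (effect -1.13 ± 0.17 (adjusted p = 0.0109)) and Serpina1b with -1.75 ± 0.16 (adjusted p = 0.00338), the last with overlapping arrays. Among 11 epithelial and mesothelial genes 6 fell and none rose, with a median of -0.69 (TG -0.32, WT -1.06). Upk3b, a uroplakin of mesothelium, had 9.97 and 9.67 (TG Ang-II) and 8.82 and 8.66 (WT Ang-II), against 10.17 (TG saline) and 10.10 (WT saline) (effect -0.86 ± 0.14, adjusted p = 0.0129), Krt18, a keratin of simple epithelia, had 7.08 and 6.84 (TG Ang-II) and 6.46 and 6.48 (WT Ang-II), against 7.37 (TG saline) and 7.46 (WT saline) (effect -0.70 ± 0.12, adjusted p = 0.0165), and Klk8 fell with an effect of -1.09 ± 0.11 (adjusted p = 0.00381). Msln, mesothelin, did not pass (effect -0.44 ± 0.16, adjusted p = 0.104), being low on the WT Ang-II arrays only, 7.11 and 7.55 (TG Ang-II) and 6.07 and 6.17 (WT Ang-II), against 7.31 (TG saline) and 7.03 (WT saline). In TG alone 2 and in WT alone 7 of the 11 passed as falls. As a comparison of scale, 1 of 45 ribosomal protein genes rose and 1 fell, with a median of -0.12.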
